A study of Mus musculus with 18 samples.

Results

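The genes described are 9 that build or hold the outer segment of the photoreceptor, chosen by symbol: Prph2, Rom1, Prom1, Cdhr1, Pcdh15, Fscn2, Eys, Impg1 and Impg2. Of the 54532 genes listed for each library, 8 carried 1 of these symbols. Eys had no entry under that symbol and was not analysed here. The 8 genes all passed the filter on low counts in every fit, so none of them entered through 1 group only.

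The outer segment is the light-sensing end of a photoreceptor, a modified cilium filled with stacked membrane. In cones the stack stays continuous with the plasma membrane, whereas most rod discs are closed off inside the cell. Prph2 (peripherin 2) and Rom1 are related tetraspanins that together bend the disc rim. Prom1 (prominin 1) and the photoreceptor cadherin Cdhr1 sit at the base of the outer segment, where new membrane evaginates. Pcdh15 (protocadherin 15) belongs to the Usher proteins and lies at the junction of the inner and outer segments, and Fscn2 (fascin 2) bundles actin in photoreceptors. Impg1 and Impg2 encode proteoglycans of the interphotoreceptor matrix, the coat that surrounds the outer segments. Variants in many of these genes cause retinal degeneration in people.

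The libraries came from sorted cones of wildtype mouse retinas, 1 library per retina. BALB/c (albino) retinas were taken at P21, with 6 control and 6 Txnip libraries, and C57BL/6J (pigmented) retinas at P35, with 3 control and 3 Txnip libraries. Txnip retinas had been injected at birth with AAV8-RedO-Txnip, in which the red opsin promoter drives Txnip, together with AAV8-SynP136-H2BGFP. Control retinas had received AAV8-SynP136-H2BGFP alone, so every cone sorted carried the nuclear H2BGFP label. Txnip encodes an arrestin family protein that restrains glucose uptake. The red opsin promoter is also weakly active in some rods. Strain and age, with any batch that follows them, cannot be told apart here. Whether 2 retinas of a group shared a mouse is not given in the sources used here, so p-values measure the spread between retinas.

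Each library held 647712 to 5172156 counted read pairs (median 2886629). Txnip, the label check, had at most 3 counts in any control library and at least 663 in any Txnip library. Markers of other retinal cells were measured beside the members. The 8 rod genes other than Sag, which cones also express, took 0.152 to 0.23% of the counts in BALB/c control cones, 0.218 to 0.28% in BALB/c Txnip cones, 0.108 to 1.39% in C57BL/6J control cones and 0.183 to 0.956% in C57BL/6J Txnip cones. The high values were those of C57BL/6J control replicate 1 and C57BL/6J Txnip replicate 2, called rod-rich here. The same libraries also held the most Müller glia and bipolar marker counts of the C57BL/6J libraries, 0.0970 and 0.0696% for Müller glia against 0.00671 to 0.0248% in the others and 0.0536 and 0.0530% for bipolar cells against 0.0183 to 0.0334%, so leaving them out is not a matter of rods alone. The 12 cone markers took 3.83 to 10.1% over all libraries, and the lists for bipolar cells, Müller glia, amacrine cells and retinal pigment epithelium each took less than 0.1%.

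Each of the 8 genes has a single locus in the count tables, on GRCm38. Prph2 lies at chr17:46910459-46924933, Rom1 at chr19:8927382-8929356, Prom1 at chr5:43993620-44102032 and Cdhr1 at chr14:37077857-37098347. Pcdh15 lies at chr10:73099342-74649737, Fscn2 at chr11:120361534-120368168, Impg1 at chr9:80313330-80465481 and Impg2 at chr16:56204313-56273756. Their exons sum to very different lengths, from 1526 bases in Rom1 and 2110 in Fscn2 to 9275 in Impg2 and 23773 in Pcdh15. Only Prom1 shared exonic bases with another gene, the antisense gene Gm16401, over 424 bases or 5.91% of its exons, and strand was not used in counting. Gm16401 had 1933 counts in all against 41977 for Prom1. The related members are distant in sequence: the longest identical run was 13 bases between Prph2 and Rom1 transcripts, 17 between Impg1 and Impg2, and 20 between Fscn2 and Fscn1.

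The start sites of the members whose levels differed between the strains, Prph2, Impg1 and Prom1, and of Rom1, the tetraspanin partner of Prph2, are shown with 250 bases upstream and 50 downstream (RefSeq, GRCm38.p6, printed 5′ to 3′ on the strand of the gene). Capitals mark TAATC, in either orientation, a shortened form of the core TAATCC to which the photoreceptor homeodomain factor CRX binds.
Prph2, chr17:46910228-46910527, plus strand: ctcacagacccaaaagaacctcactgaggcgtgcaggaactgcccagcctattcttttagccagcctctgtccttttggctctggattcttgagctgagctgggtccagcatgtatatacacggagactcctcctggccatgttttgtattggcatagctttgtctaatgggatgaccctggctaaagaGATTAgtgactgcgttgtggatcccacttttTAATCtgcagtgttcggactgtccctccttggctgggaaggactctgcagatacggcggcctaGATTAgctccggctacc
Impg1, chr9:80465389-80465688, minus strand: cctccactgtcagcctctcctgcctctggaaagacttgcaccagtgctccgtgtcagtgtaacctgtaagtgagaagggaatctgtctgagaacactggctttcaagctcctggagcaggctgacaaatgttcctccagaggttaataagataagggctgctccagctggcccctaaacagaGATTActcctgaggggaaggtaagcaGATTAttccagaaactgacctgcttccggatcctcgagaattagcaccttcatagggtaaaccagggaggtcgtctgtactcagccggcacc
Prom1, chr5:44101687-44101986, minus strand: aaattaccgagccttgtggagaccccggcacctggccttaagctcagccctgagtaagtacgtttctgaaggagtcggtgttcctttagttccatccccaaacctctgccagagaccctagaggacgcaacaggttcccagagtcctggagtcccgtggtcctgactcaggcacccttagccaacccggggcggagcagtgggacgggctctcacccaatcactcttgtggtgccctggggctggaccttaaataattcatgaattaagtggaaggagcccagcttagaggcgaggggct
Rom1, chr19:8929307-8929606, minus strand: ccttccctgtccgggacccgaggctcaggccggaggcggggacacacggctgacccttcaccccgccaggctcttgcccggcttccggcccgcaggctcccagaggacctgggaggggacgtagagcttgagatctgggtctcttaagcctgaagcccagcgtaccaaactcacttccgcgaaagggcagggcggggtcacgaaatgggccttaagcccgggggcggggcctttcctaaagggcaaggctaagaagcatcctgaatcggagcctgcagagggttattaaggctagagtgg
The Prph2 window held 3 matches, at -61, -30 and 33 from the start, and the Impg1 window held 2, at -68 and -42. The windows of Rom1 and of the upstream Prom1 start held 0. A second Prom1 start in the table, chr5:44094719-44095018, held 1 match and so did Impg2, which gives 4 of the 9 windows tabulated for the 8 genes, against 22% of 32851 mouse windows of the same length. The longer TAATCC was in 0 of the 9 windows and in 7.06% of all windows. TGCTGA, part of the site of the rod factor NRL, was in 1 of the 9 (Pcdh15) and in 19.5% of all windows, and AGGTCA, part of the site of many nuclear receptors, was in 1 of the 9 (Impg1) and in 16.3%. The shorter search was added after the longer one found no match, and a match describes letters, not binding.

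Per length of exon, the members spanned a wide range of levels in cones. Levels are CPM, the counts scaled to a common library size after TMM normalization, divided by kb of exon. That length takes in every exon annotated for the gene, so it can exceed the length of the transcripts made. Pcdh15 had a higher mean CPM than Prom1 in BALB/c control cones (1588 and 937.1), so their order per kb depends on that length. In BALB/c control cones (n = 6) Prph2 stood at 657.5 ± 38.8 (SD) CPM per kb, Rom1 at 635.1 ± 32.9 and Cdhr1 at 511.8 ± 39.5, which placed them 40th, 43rd and 50th of 14751 genes. Prom1 followed at 130.6 ± 16.1, Pcdh15 at 66.8 ± 7.59, Impg1 at 36.5 ± 7.01, Impg2 at 35.7 ± 4.19 and Fscn2 at 19.4 ± 4.45. The libraries of neighbours in this order overlapped for Prph2 and Rom1 and for Impg1 and Impg2, and did not overlap between Rom1 and Cdhr1, Cdhr1 and Prom1, Prom1 and Pcdh15, Pcdh15 and Impg1, or Impg2 and Fscn2. Both rim tetraspanins and Cdhr1 were thus among the most abundant transcripts of the cone, and the actin bundler was the least abundant member.

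**Figure D1:**
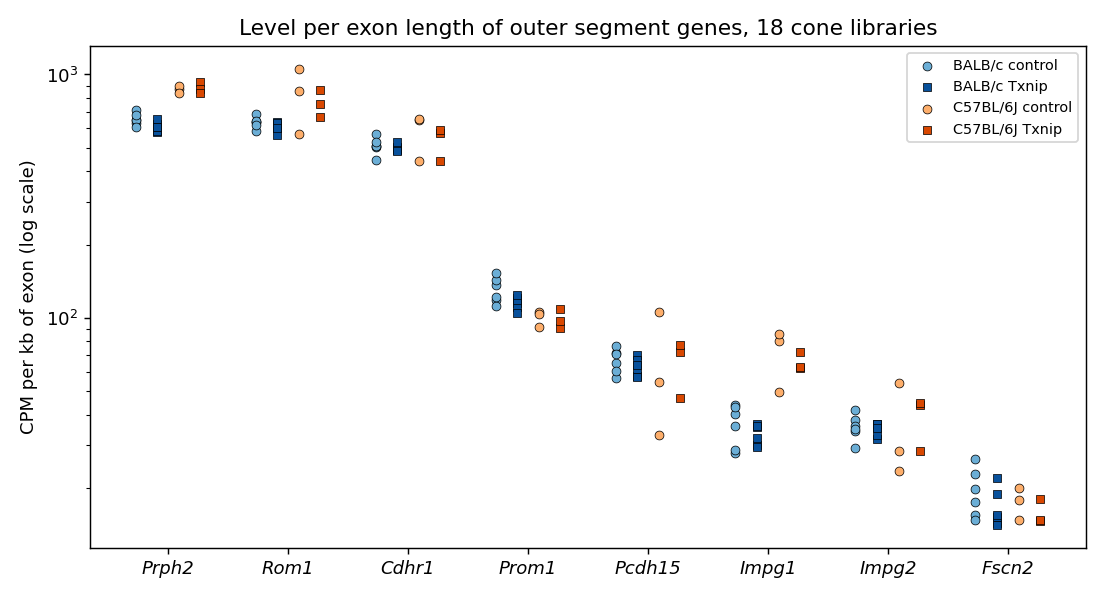
Level of each member per kb of exon (y axis, CPM per kb, log scale) in the 18 libraries, with 1 point per library and the 4 groups side by side. Prph2, Rom1 and Cdhr1 lie above 400 CPM per kb in every library, and Fscn2 lies lowest on average in every group.

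In C57BL/6J control cones (n = 3) the same 3 genes led, with 869.2 ± 30.6 CPM per kb for Prph2, 827.5 ± 244 for Rom1 and 581.9 ± 121 for Cdhr1. Prom1 followed at 100.4 ± 7.65, and Fscn2 was again lowest at 17.5 ± 2.64. Between them Impg1, at 72.0 ± 19.5 CPM per kb, now stood ahead of Pcdh15, at 64.3 ± 37.3, and of Impg2, at 35.3 ± 16.4. Of the neighbours in this order, the libraries of Prph2 and Rom1, Rom1 and Cdhr1, Impg1 and Pcdh15, and Pcdh15 and Impg2 overlapped, and those of Cdhr1 and Prom1, Prom1 and Impg1, and Impg2 and Fscn2 did not.

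The rim tetraspanins were present in nearly equal amounts per length. The ratio of Rom1 to Prph2, each per kb of exon, was 0.967 ± 0.0451 (SD, n = 6) in BALB/c control cones, 1.00 ± 0.0687 (n = 6) in BALB/c Txnip cones, 0.956 ± 0.292 (n = 3) in C57BL/6J control cones and 0.863 ± 0.106 (n = 3) in C57BL/6J Txnip cones. The C57BL/6J control libraries ran from 0.636 to 1.21, a range that held the other 3 group means. The matrix proteoglycans were also near equality in BALB/c, where Impg1 to Impg2 was 1.04 ± 0.27 in control and 0.960 ± 0.14 in Txnip cones. In C57BL/6J the ratio was 2.21 ± 0.77 in control and 1.75 ± 0.397 in Txnip cones, and every C57BL/6J library (1.43 to 3.02) lay above every BALB/c library (0.683 to 1.37).

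**Figure D2:**
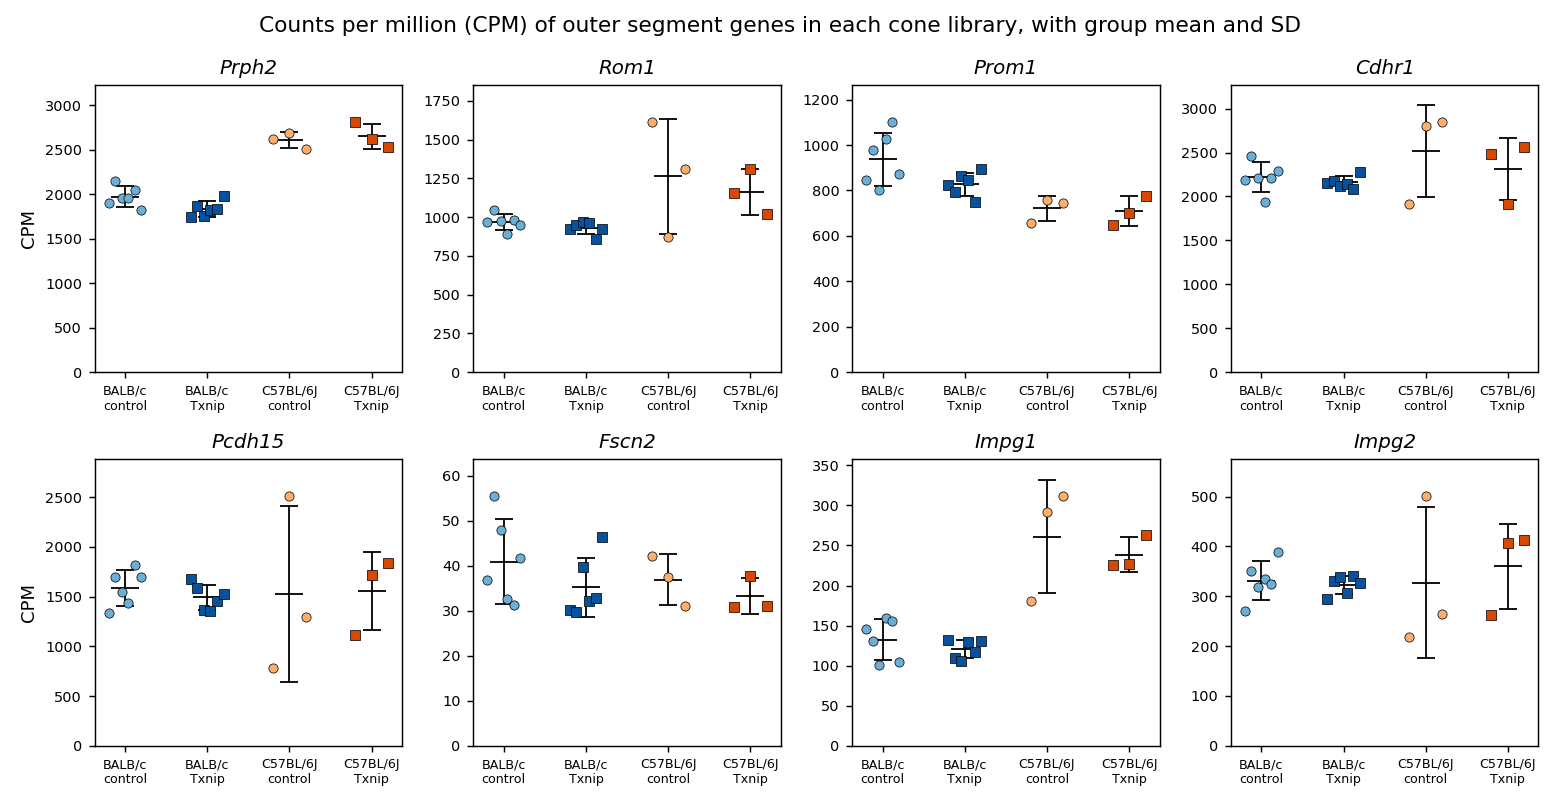
CPM of each member (y axis from 0, own scale per gene) in every library of the 4 groups, with the group mean (long bar) and SD (whiskers). The BALB/c groups overlap for every gene, the C57BL/6J libraries lie above the BALB/c libraries for Prph2 and Impg1, and the C57BL/6J libraries spread widely for Rom1, Pcdh15 and Impg2.

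The first question was whether Txnip changed these genes in wildtype cones. None of the 8 was called in either strain by the quasi-likelihood test of edgeR, with p-values adjusted by the Benjamini-Hochberg method over all genes tested (threshold 0.05). In BALB/c 2 of 12017 genes passed, or 0.0166%, 1 of them the delivered Txnip itself, and 1372 had an unadjusted p under 0.05. In C57BL/6J 2 of 12974 passed, or 0.0154%, again with Txnip as 1 of them, and 97 had an unadjusted p under 0.05. Of the 8 members, 1 (Prom1) was under 0.05 unadjusted in BALB/c and 0 in C57BL/6J, and DESeq2 called 0 members in both strains. The Txnip and control libraries overlapped for all 8 members in both strains; over all genes tested the groups did not overlap for 0.699% in BALB/c and 4.42% in C57BL/6J.

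Rom1, a tetraspanin of the rim, ran from 893.4 to 1047 CPM (median 973.2) in BALB/c control cones and from 858.9 to 969.3 CPM (median 935.6) in BALB/c Txnip cones. The ranges overlapped between 893.4 and 969.3 CPM. The log2 fold change, Txnip over control, was -0.06 (SE 0.07, 95% interval -0.20 to 0.08, edgeR adjusted p = 0.774). In C57BL/6J the control libraries held 1611, 870.4 and 1307 CPM and the Txnip libraries 1158, 1312 and 1018 CPM. The Txnip values all fell inside the control range, and the log2 fold change was -0.12 (SE 0.28, 95% interval -0.74 to 0.50, edgeR adjusted p = 1). The upper bound of the change of Rom1 was thus 0.08 on the log2 scale in BALB/c and 0.50 in C57BL/6J.

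Prph2, the partner of Rom1, ran from 1818 to 2153 CPM (median 1957) in BALB/c control cones and from 1748 to 1979 CPM (median 1826) in BALB/c Txnip cones. The Txnip libraries lay lower on average, with overlap, and the log2 fold change was -0.11 (SE 0.07, edgeR adjusted p = 0.552). In C57BL/6J Prph2 was the steadiest member: the control libraries held 2625, 2692 and 2511 CPM and the Txnip libraries 2809, 2622 and 2528 CPM. Its log2 fold change there was 0.02 (SE 0.23, 95% interval -0.49 to 0.53, edgeR adjusted p = 1).

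Of the genes at the outer segment base, Prom1 had the smallest p-value among the members. It ran from 801.5 to 1100 CPM (median 924.4) in BALB/c control cones and from 751 to 892.6 CPM (median 833.8) in BALB/c Txnip cones, and 3 control libraries lay above every Txnip library. The log2 fold change was -0.18 (SE 0.08, 95% interval -0.35 to -0.01), with an unadjusted p of 0.0427 that became 0.413 after adjustment in edgeR. With the rod share without Sag as a covariate, which was higher in BALB/c Txnip than in BALB/c control cones on the median (0.232 and 0.207%), it was -0.06 (SE 0.09, edgeR adjusted p = 0.985). In C57BL/6J the control libraries held 657.8, 759.7 and 744.2 CPM and the Txnip libraries 649.2, 698.8 and 777.8 CPM, a log2 fold change of -0.03 (SE 0.21). Cdhr1 ran from 1936 to 2463 CPM in BALB/c control and from 2090 to 2283 CPM in BALB/c Txnip cones, so that the Txnip range lay inside the control range. Its log2 fold change was -0.04 (SE 0.07) in BALB/c and -0.13 (SE 0.26) in C57BL/6J.

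The other members also missed the threshold. In BALB/c the log2 fold change was -0.09 (SE 0.08) for Pcdh15, -0.24 (SE 0.16) for Fscn2, -0.14 (SE 0.12) for Impg1 and -0.04 (SE 0.09) for Impg2, with edgeR adjusted p-values between 0.58 and 0.897. In C57BL/6J it was 0.03 (SE 0.42) for Pcdh15, -0.15 (SE 0.24) for Fscn2, -0.13 (SE 0.24) for Impg1 and 0.14 (SE 0.35) for Impg2. Fscn2 rested on the fewest counts, 30 to 215 per library in BALB/c. The 8 estimates were all below 0 in BALB/c, with a median of -0.0984, against 49.9% of all genes tested below 0 and a median of 0.000239. In C57BL/6J 5 were below 0 and 3 above, with a median of -0.0724 against 0.012 over all genes tested. The members share libraries and are not independent, so these counts carry no test. Of other lists in BALB/c, 8 of 12 cone markers (median -0.0543) and 6 of 8 interphotoreceptor matrix and adhesion genes (median -0.131) lay below 0. Disc and ciliary partner genes did not lean this way, with 7 of 16 below 0 (median 0.0285), nor did rod markers, with 1 of 9 (median 0.19). The cone markers took 6.09 ± 0.596% of the counts in control and 5.48 ± 0.337% in Txnip cones. Other measures also differed between the BALB/c groups. The 8 amacrine markers took 0.030 to 0.0382% of the counts in control and 0.039 to 0.0524% in Txnip cones, with no overlap, and 0 of the 6 tested were called by edgeR (lowest adjusted p 0.0629). The ribosomal RNA locus took 11.1 ± 4.69% in control and 15 ± 1.64% in Txnip cones, and the ratio of counts on long genes (at least 8000 bases of exon) to counts on short genes (less than 2000) had medians of 1.585 and 1.845. The part of these measures in the estimates of the members was not tested.

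**Figure D3:**
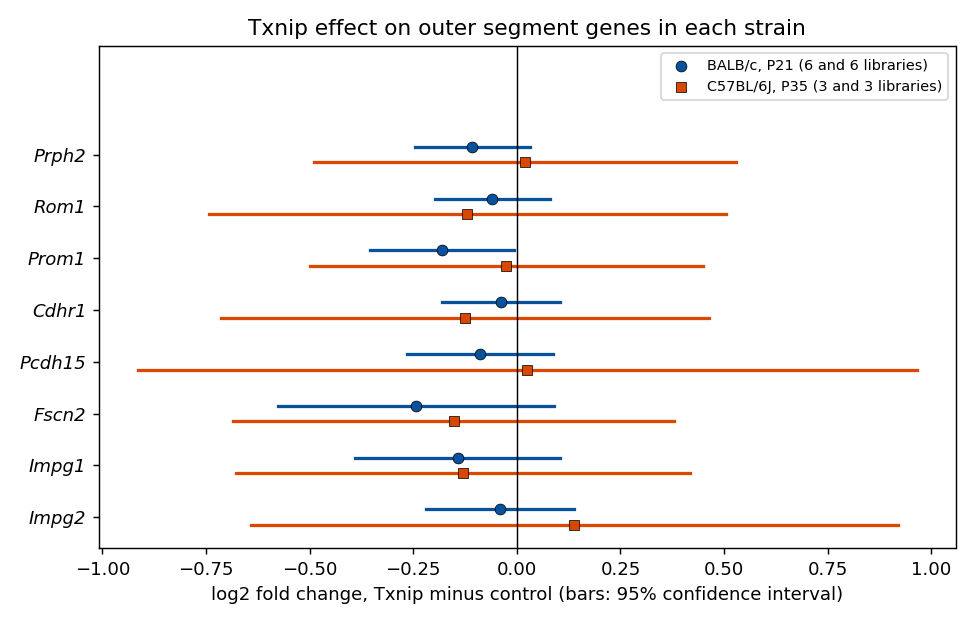
Log2 fold change, Txnip over control (x axis) for each member, with 95% confidence intervals as bars, in BALB/c at P21 (circles, 6 and 6 libraries) and in C57BL/6J at P35 (squares, 3 and 3 libraries). Every interval in C57BL/6J spans 0, and in BALB/c only the interval of Prom1 (-0.35 to -0.01) does not, before adjustment.

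Whether Txnip acted differently in the strains was tested as an interaction in 1 fit of all 4 groups. The difference, C57BL/6J effect minus BALB/c effect, ran from -0.08 (Cdhr1, SE 0.19) to 0.18 (Impg2, SE 0.28) on the log2 scale. For Rom1 it was -0.06 (SE 0.20, 95% interval -0.48 to 0.36). By edgeR's quasi-likelihood test 0 of the 8 members and 0 of 14751 genes (0%) were called, 706 genes had an unadjusted p under 0.05, none of them a member, and DESeq2 also called 0 members and 0 genes. 

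The strains themselves differed in 3 members. In control cones Impg1 and Prph2 were higher and Prom1 lower in C57BL/6J at P35 than in BALB/c at P21. That was 3 of 8 called in edgeR, against 17.5% of the 14751 genes tested. By direction, 2 of 8 were higher against 8.03% of all genes, and 1 of 8 was lower against 9.52%. The control libraries of the strains did not overlap for the same 3 members, against 18.6% of all genes. In Txnip cones 2 of 8 were called, against 17.6% of all genes, and the libraries did not overlap for Prph2, Rom1 and Impg1, against 17.9%. The control libraries enter both this comparison and the Txnip effects, so the values are given side by side and not as independent results. In these sorted pools fewer cells of a type and less RNA per cell cannot be told apart.

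Impg1, the smaller of the matrix proteoglycans, showed the widest gap. It ran from 100.6 to 159 CPM (median 138.1) in BALB/c control cones, and the C57BL/6J control libraries held 180.5, 291.4 and 311.6 CPM. All 3 lay above the highest BALB/c library. Impg1 was 1.97-fold higher in C57BL/6J control cones (log2 fold change 0.98, SE 0.17, edgeR adjusted p = 0.000217). In Txnip cones it ran from 106.4 to 132.4 CPM in BALB/c and stood at 225.2, 227.2 and 263.7 CPM in C57BL/6J, a log2 fold change of 0.99 (SE 0.17, edgeR adjusted p = 0.000208). Its lowest C57BL/6J control value was that of replicate 1, the library rich in rod transcripts. Without both rod-rich libraries the difference was 1.17 (SE 0.16, edgeR adjusted p = 1.13e-05).

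Impg2, the larger proteoglycan, did not follow Impg1. It ran from 271.2 to 388.7 CPM in BALB/c control cones, and the C57BL/6J control libraries held 217.6, 500.9 and 263.7 CPM, on both sides of that range. The log2 fold change was -0.02 (SE 0.20, 95% interval -0.42 to 0.39, edgeR adjusted p = 0.963). Single libraries moved it widely, to -0.49 without C57BL/6J control replicate 2 and to 0.19 without C57BL/6J control replicate 1.

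Prph2 was 1.32-fold higher in C57BL/6J control cones (log2 fold change 0.40, SE 0.10, edgeR adjusted p = 0.00854), a call that was lost without the filter on low counts (0.41, edgeR adjusted p = 0.0868). The lowest C57BL/6J control library, at 2511 CPM, stood above the highest BALB/c control library, at 2153 CPM. In Txnip cones the log2 fold change was 0.53 (SE 0.10, edgeR adjusted p = 0.000774), and again no libraries overlapped. The rod-rich C57BL/6J libraries were not the highest for Prph2, at 2625 CPM in control replicate 1 and 2622 CPM in Txnip replicate 2, and without them the difference in control cones was 0.38 (SE 0.10, edgeR adjusted p = 0.0108).

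Rom1 was also estimated higher in C57BL/6J control cones, with a log2 fold change of 0.38 (SE 0.14, 95% interval 0.09 to 0.68), but missed the threshold (unadjusted p 0.0132, edgeR adjusted p = 0.0661). The C57BL/6J control libraries held it at 1611, 870.4 and 1307 CPM, and the second lay below every BALB/c control library. A single library moved the value widely: the log2 fold change was 0.57 without C57BL/6J control replicate 2 (edgeR adjusted p = 0.00331) and 0.15 without C57BL/6J control replicate 1 (edgeR adjusted p = 0.531). Replicate 1, the highest for Rom1, was the library rich in rod transcripts, and without both rod-rich libraries the value was 0.15 (SE 0.13, edgeR adjusted p = 0.46).

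Prom1 was 1.30-fold lower in C57BL/6J control cones (log2 fold change -0.38, SE 0.12, edgeR adjusted p = 0.0378). Its highest C57BL/6J control library, at 759.7 CPM, stood just below its lowest BALB/c control library, at 801.5 CPM. In Txnip cones the libraries overlapped and the log2 fold change was -0.22 (SE 0.12, edgeR adjusted p = 0.229). The call was near the threshold and was lost without both rod-rich libraries (-0.33, SE 0.13, edgeR adjusted p = 0.0858), while subtracting the counts of the antisense gene Gm16401 left it at -0.39 (SE 0.12, edgeR adjusted p = 0.034).

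The remaining members were not called between the strains. The log2 fold change in control cones was 0.19 (SE 0.13, edgeR adjusted p = 0.363) for Cdhr1, -0.05 (SE 0.23, edgeR adjusted p = 0.902) for Pcdh15 and -0.14 (SE 0.19, edgeR adjusted p = 0.662) for Fscn2. The value of Pcdh15 turned on single libraries: it was -0.64 without C57BL/6J control replicate 2 (edgeR adjusted p = 0.0268) and 0.24 without C57BL/6J control replicate 1. Over the 8 members the median was 0.0832, with 4 above and 4 below 0, against a median of -0.00116 over all genes. Cdhr1 stood at 1915 CPM in C57BL/6J control replicate 1 and at 2805 and 2844 CPM in replicates 2 and 3. Without both rod-rich libraries its log2 fold change was 0.33 (SE 0.10, edgeR adjusted p = 0.0252).

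**Figure D4:**
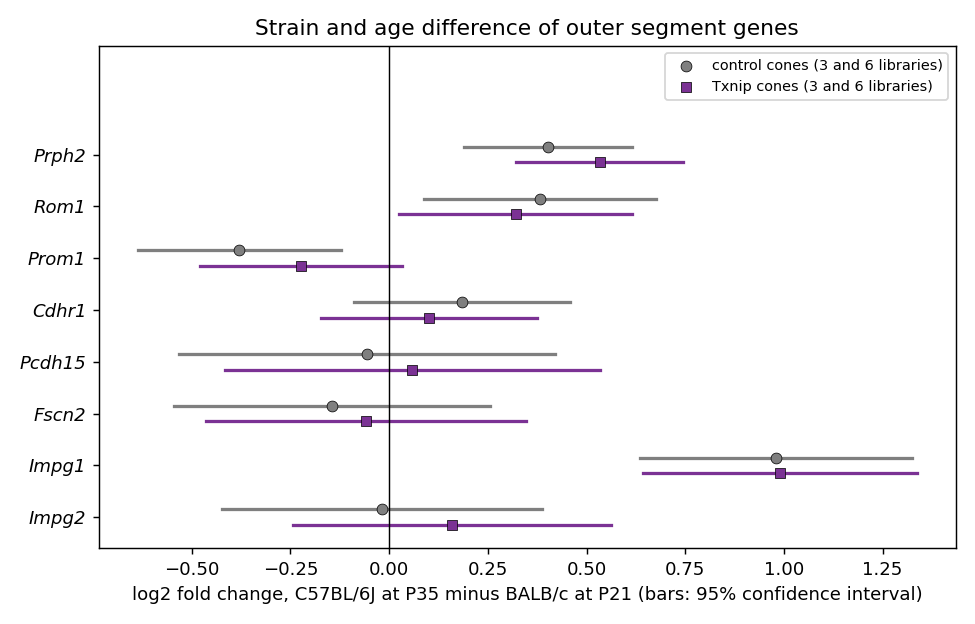
Log2 fold change of C57BL/6J at P35 against BALB/c at P21 (x axis) for each member, with 95% confidence intervals as bars, in control cones (circles) and in Txnip cones (squares), each from 3 and 6 libraries in 1 fit of all 4 groups. Impg1 stands at 0.98 and 0.99, Prph2 at 0.40 and 0.53, and Prom1 at -0.38 and -0.22.

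Markers of other cells moved with strain too. Of the rod markers 4 of 9 were higher in C57BL/6J control cones (median of the list 1.6 on the log2 scale) and 0 lower. Of the cone markers 4 of 12 were higher and 0 lower (median 0.302), of the Müller glia markers 2 of 7 were higher, of the amacrine markers 4 of 7 were lower, of the retinal pigment epithelium markers 2 of 2 tested were lower, and of the bipolar markers 0 of 8 were called by edgeR (lowest adjusted p 0.126). The part of these cells in the strain difference of the members was not tested beyond the values without the rod-rich libraries and with the rod share as a covariate. With that share, taken without Sag, as a covariate, Impg1 stood at 1.07 (SE 0.15, edgeR adjusted p = 1.49e-05), Prph2 at 0.41 (SE 0.10, edgeR adjusted p = 0.00563), Prom1 at -0.34 (SE 0.12, edgeR adjusted p = 0.0524) and Rom1 at 0.22 (SE 0.12, edgeR adjusted p = 0.181).

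The C57BL/6J libraries varied far more than the BALB/c libraries in some members. The coefficient of variation of Pcdh15 was 58% in C57BL/6J control cones and 11.4% in BALB/c control cones, that of Impg2 46.4% and 11.7%, and that of Rom1 29.5% and 5.17%. Prph2 (3.52% and 5.9%), Prom1 (7.62% and 12.3%) and Fscn2 (15.1% and 22.9%) did not share this. Pcdh15 stood at 786, 2511 and 1291 CPM in the C57BL/6J control libraries and at 1113, 1715 and 1842 CPM in the Txnip libraries. Control replicate 2 was thus the highest of all 18 libraries for Pcdh15 and for Impg2 (500.9 CPM) and lower than the other C57BL/6J libraries for Rom1 (870.4 CPM).

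Pcdh15 and Impg2 are the members with the longest exons and Rom1 the one with the shortest. The balance of long and short transcripts also differed between libraries. Counts on 2754 protein-coding genes with at least 8000 bases of exon were divided by those on 5793 genes with less than 2000 bases, members left out. The ratio was 1.61, 1.97 and 1.39 in C57BL/6J control replicates 1, 2 and 3, and 1.26, 2.20 and 1.91 in Txnip replicates 1, 2 and 3, against 1.54 to 1.98 in the BALB/c libraries. The share of counts on the ribosomal RNA locus differed as well, at 3.27, 27.6 and 6.44% in C57BL/6J control replicates 1, 2 and 3 and 5.70, 26.9 and 20.2% in Txnip replicates 1, 2 and 3, against 6.00 to 16.3% in BALB/c. The C57BL/6J libraries with the 3 highest shares, control replicate 2 and Txnip replicates 2 and 3, were also the 3 highest for Pcdh15 and Impg2. The part of either measure in the spread of the members was not tested. With the log2 ratio of long to short genes as a covariate, chosen after seeing the data, Impg1, Prph2 and Prom1 stayed called between the strains (0.98, 0.40 and -0.38), and Rom1 was called as well (0.37, SE 0.13, edgeR adjusted p = 0.0427).

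**Figure D5:**
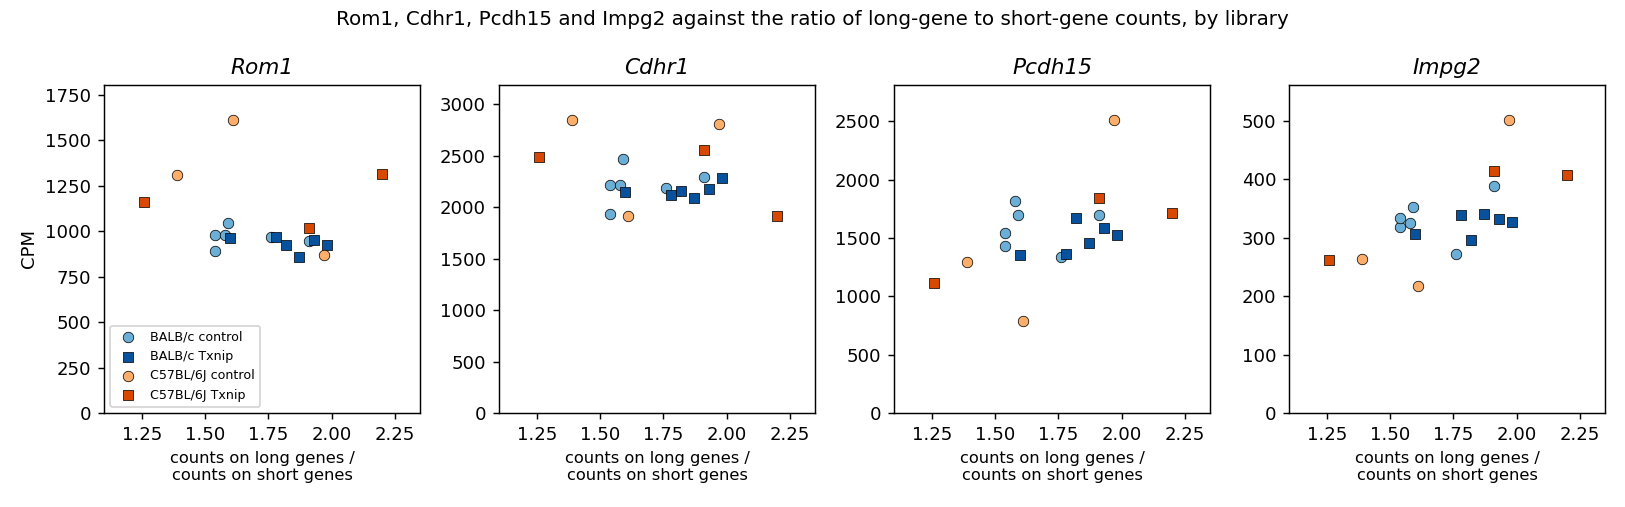
CPM of Rom1, Cdhr1, Pcdh15 and Impg2 (y axes from 0) against the ratio of counts on long genes to counts on short genes (x axis, from 1.26 to 2.20), with 1 point per library. C57BL/6J control replicate 2, at a ratio of 1.97, has the highest Pcdh15 and Impg2 of the 18 libraries, and the C57BL/6J points lie farther apart than the BALB/c points in all 4 panels.

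Some members moved together from library to library. Correlations were taken on log2 CPM as deviations from the 4 group means, over 18 libraries that share cell sorting and amplification, as a description. Pcdh15 and Impg2 had a Pearson r of 0.901, and Prom1 and Impg1 one of 0.692. Rom1 ran against Pcdh15 (r -0.753) and Impg2 (r -0.713). Prph2 and Rom1, whose proteins share the rim, had an r of 0.0128, and Impg1 and Impg2 one of 0.212. Among the 12 BALB/c libraries alone Pcdh15 and Impg2 had an r of 0.391 and Prom1 and Impg1 one of 0.661. Rom1 had an r of 0.173 with Pcdh15 and -0.0741 with Impg2. Prph2 and Rom1 had one of 0.315, and Impg1 and Impg2 one of -0.481. The 18-library values of Pcdh15 with Impg2, and of Rom1 with both, thus rested largely on the C57BL/6J libraries.

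By the same measure, among 12896 genes, the closest to Cdhr1 were Cnga3, the cone subunit of the transduction channel (r 0.955), Gckr (0.901) and Rbp3, which encodes the retinoid carrier of the interphotoreceptor matrix (0.888). The closest to Rom1 were Chrnb3 (0.912), Dkk3 (0.901), which is on the list of Müller glia markers used here, and Faim2 (0.886). The closest to Prph2 were Nxf1 (0.793), Larp4b (0.745) and Cog2 (0.742). For Prom1 they were Braf (0.897), Slc15a2 (0.879) and Tmem241 (0.847), and for Fscn2 Lrrc45 (0.901), Gm47694 (0.824) and Fam222a (0.808). Cerkl was among the 3 closest to both Pcdh15 (0.931) and Impg2 (0.924), beside Klhl11 (0.963) and Lrit3 (0.949) for Pcdh15 and Dnah9 (0.958) and Lcor (0.917) for Impg2. For Impg1 they were Jam2 (0.864), Cggbp1 (0.836) and Copa (0.835). These values are highest of many and carry no test.

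Other genes of the same structures were counted from 3 lists. Among 18 disc and ciliary partner genes, which carry lipid, channel and ciliary proteins of the outer segment, 16 were tested, and 0 were called for Txnip in either strain by edgeR (lowest adjusted p 0.106 in BALB/c and 1 in C57BL/6J). Between the strains 5 were higher and 2 lower in C57BL/6J control cones, with a median of 0.343, against 8.03% of all genes higher and 9.52% lower. The higher ones with the largest change were Cnga1 (2.16, SE 0.64, edgeR adjusted p = 0.023) and Cngb1 (1.59, SE 0.55, edgeR adjusted p = 0.0498), subunits of the rod channel. The lower ones were Tmem30a, a lipid flippase subunit (-1.34, SE 0.38, edgeR adjusted p = 0.0168), and Fscn1, the widely expressed fascin (-1.09, SE 0.35, edgeR adjusted p = 0.0337). Cnga1 is also 1 of the rod markers. Both channel genes were high only in the rod-rich library among the C57BL/6J control libraries: Cnga1 stood at 178.3 CPM there and at 10.02 and 18.58 CPM in the other libraries of the group, against 11.32 to 20.25 CPM in BALB/c control cones, and Cngb1 stood at 213.6 CPM there and at 25.42 and 32.16 CPM in the others, against 25.48 to 35.89 CPM. Tmem30a differed between the strains in control cones, at 199.4 ± 86.3 CPM in BALB/c (n = 6) and 78.7 ± 11.2 CPM in C57BL/6J (n = 3), while its means in Txnip cones were 76.8 ± 47.5 and 92.9 ± 16.5 CPM. Within this list it also had the lowest adjusted p for Txnip in BALB/c, at -1.31 (SE 0.31, unadjusted p 0.000407, edgeR adjusted p = 0.106), and the interaction was 1.57 (SE 0.52, edgeR adjusted p = 0.906).

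Of 11 Usher and calyceal process genes, the partners of Pcdh15, 3 were tested for Txnip in BALB/c, 4 in C57BL/6J and 6 between the strains. By edgeR 0 were called for Txnip, with lowest adjusted p-values of 0.575 and 1. Between the strains 2 of 6 were higher in C57BL/6J control cones, against 8.03% of all genes. Myo7a, the Usher myosin, was at 3.54 ± 1.21 CPM (n = 6) in BALB/c and 58.8 ± 17.8 CPM (n = 3) in C57BL/6J control cones, a log2 fold change of 4.10 (SE 0.32, edgeR adjusted p = 7.28e-09). Its counts were 5 to 17 per BALB/c control library and 150 to 219 per C57BL/6J control library, with no overlap. Whrn, the Usher scaffold whirlin, was higher by 0.77 (SE 0.19, edgeR adjusted p = 0.00702). Cdh23, the partner of Pcdh15 in hair cells, had at most 4 counts in any control library, while Pcdh15 had at least 2182.

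Of 10 interphotoreceptor matrix and adhesion genes, the setting of Impg1 and Impg2, 8 were tested for Txnip in each strain and 10 between the strains. By edgeR 0 were called in any comparison, with lowest adjusted p-values of 0.293 in BALB/c, 1 in C57BL/6J and 0.0513 between the strains. The median strain difference of this list was -0.0523 on the log2 scale. Over all genes 17.5% were called between the strains.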

How the data were processed

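RNA-seq was done on sorted cones with a modified Smart-Seq2 protocol. The authors mapped reads to GRCm38.p6 and counted read pairs over exons with featureCounts 1.6.2 and the Ensembl 94 annotation, pairs overlapping several genes being counted for each, without strand. The submitters' notes also name STAR and DESeq2. The deposited values are raw counts per gene, 1 table per library. For each strain the authors deposited a further table of the genes that passed their own DESeq2 test, with fold changes and p-values, and these tables were not used.

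Counts were analysed in R 4.3.3 with edgeR 4.0.16 (filterByExpr, TMM, glmQLFit, glmQLFTest) over all genes, with Benjamini-Hochberg adjustment at 0.05. Txnip effects were fitted within each strain, and strain differences and the interaction in 1 fit of all 4 groups. Confidence intervals are 95%. Libraries of a group never agreed within sampling noise (smallest chi-square per degree of freedom 1.83 over 36 pairs). Each fit was first run on simulated data in which 200 genes were changed. Depth was 647712 to 5172156 counts per library. Alternatives were DESeq2 1.42.0, its size factors in edgeR, no filter, ribosomal RNA and mitochondrial genes left out, the rod share as a covariate, other sample sets, the replicate block and each library left out. The rod share without Sag, the long-to-short ratio and the Gm16401 subtraction were added after seeing the data.

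The members and the gene lists were chosen with earlier results of these data known. All members were named, with the called genes of each list, at most 4 per list and comparison, and the 3 genes closest to each member by Pearson r among genes with a mean of at least 10 counts. The group of each library came from the labels.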

Additional observations from a re-analysis of the deposited data

How the results depend on the processing

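In every alternative 0 members were called for Txnip in BALB/c, in C57BL/6J or between the strains in the Txnip effect, the replicate block and each library left out included. Impg1 stayed called between the strains in all alternatives, from 0.84 to 1.17 with each library left out. The number of members called between the strains was 3, where 2588 of 14751 genes were called. It was 1 without a filter on low counts (2744 of 43750 genes called). It was 2 with the rod share as a covariate (2764 of 14751) and with that share without Sag (3104 of 14751). It was also 2 with control libraries only (2189 of 13253) and in Txnip cones (2599 of 14751). With the long-to-short ratio as a covariate it was 4 (3241 of 14751). With each library left out it was 2 to 5. The 5 came without C57BL/6J control replicate 2 (2489 of 15489), where Rom1 (0.57, edgeR adjusted p = 0.00331) and Pcdh15 (-0.64, edgeR adjusted p = 0.0268) joined. Prph2 lost its call without a filter (adjusted p = 0.0868). Prom1 lost it without a filter (0.169), with the rod share as a covariate (0.0659), with that share without Sag (0.0524), with control libraries only (0.0644), without both rod-rich libraries (0.0858), in Txnip cones (0.229), and in 5 of the 18 fits with a library left out. The cause was not tested, beyond more genes being tested without the filter. Replicate numbers were shared across groups, but not every same-numbered pair of libraries deviated together (correlations of deviations -0.287 to 0.204 in BALB/c and -0.219 to 0.491 in C57BL/6J, 2000 genes), so the numbers were not read as pairs. With the replicate block 0 members were called in BALB/c, C57BL/6J and the interaction, and 3 genes in place of 2 in BALB/c. The strain difference under the block could not be estimated and was not run.

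Signs turned only for members that were not called. In the Txnip effect these were Impg1 in BALB/c with the rod share without Sag as a covariate (0.036) and, in C57BL/6J, Prph2 (-0.013) and Pcdh15 (-0.018) without a filter, Pcdh15 with the long-to-short ratio as a covariate (-0.056), and Pcdh15 (-0.381) and Impg2 (-0.195) without both rod-rich libraries. Between the strains these were Pcdh15 (0.014) and Impg2 (0.060) with the rod share, Impg2 with the rod share without Sag (0.031), Pcdh15 (0.243) and Impg2 (0.188) without both rod-rich libraries, and Pcdh15 (0.059) and Impg2 (0.159) in Txnip cones. In the interaction these were Impg1 with DESeq2 (-0.001) and its size factors (-0.003), Rom1 with the rod share without Sag (0.010), and, without both rod-rich libraries, Rom1 (0.065), Pcdh15 (-0.267), Impg1 (-0.155) and Impg2 (-0.130).

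With each library left out, signs also turned in the Txnip effect for Impg2 in BALB/c (-0.094 to 0.009) and, in C57BL/6J, for Prph2 (-0.018 to 0.042), Rom1 (-0.333 to 0.102), Prom1 (-0.128 to 0.048), Pcdh15 (-0.287 to 0.589), Impg1 (-0.334 to 0.001) and Impg2 (-0.083 to 0.585). Between the strains they turned for Pcdh15 (-0.639 to 0.244) and Impg2 (-0.487 to 0.189). In the interaction they turned for Rom1 (-0.265 to 0.163), Cdhr1 (-0.237 to 0.029), Pcdh15 (-0.189 to 0.682), Fscn2 (-0.031 to 0.203), Impg1 (-0.188 to 0.150) and Impg2 (-0.034 to 0.630).

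Over all genes, 2 were called for Txnip in BALB/c, but 76 with DESeq2, 1400 without a filter and 258 without BALB/c Txnip replicate 1. The interaction called 186 without a filter, and the strain difference 1605 in place of 2588 without C57BL/6J control replicate 3. The median of all genes shifted by -0.151 with DESeq2 and -0.23 without a filter in BALB/c, and by -0.351 and -0.291 between the strains, where low genes were kept. With 3 libraries per group, the 95% intervals of the Txnip effect in C57BL/6J reached from -0.91 to 0.96 for Pcdh15, the widest, and from -0.50 to 0.45 for Prom1, the narrowest.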
